A study of Rattus norvegicus and Mus musculus with 61 samples.

Results

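The genes described here encode the subunits of ionotropic glutamate receptors, the metabotropic glutamate receptors and the subunits of the GABA-A receptor. They were taken from the arrays by symbol: every gene whose probe set carried a single symbol beginning with Gria, Grin, Grik, Grid or Grm followed by a digit, or beginning with Gabr. This gave 23 of 8251 mouse genes and 38 of 4736 rat genes, each represented by its probe set with the highest mean. A filter on dim probe sets (above 193 in mouse or 202 in rat in at least 3 arrays) left 16 of the 23 in mouse and 35 of the 38 in rat. The 7 mouse genes that did not pass were Gria4, Grin2a, Gabra3, Gabra6, Gabrg3, Gabrr1 and Gabrr2, and the 3 rat genes were Gabrg3, Gabrr2 and Gabrr3.

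AMPA, NMDA and kainate receptors are cation channels opened by glutamate, each assembled from several subunits, and they carry most fast excitation in the cortex. Metabotropic glutamate receptors couple to G proteins and tune transmitter release and excitability, on glia as well as on neurons. The GABA-A receptor is a chloride channel of mixed alpha, beta and other subunits and carries most fast inhibition. Traumatic brain injury releases glutamate, and the subunits present set how much calcium then enters a neuron and how strongly GABA can oppose it.

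The series measured gene expression over time in the parieto-occipital cortex of male C57BL/6 mice of 20 to 25 g and male Sprague-Dawley rats of 400 ± 25 g; the labels give weights, not ages. Mice under isoflurane received a moderate controlled cortical impact, at 6 m/s and to a depth of 1.5 mm, or sham surgery. They were sampled 4, 8, 24 or 72 h later, with 3 injury arrays and 2 sham arrays per time and 2 arrays of naive mice. Each mouse array held RNA of 4 mm disks pooled from 3 animals. Rats under sodium pentobarbital received a fluid percussion pulse of 2.5 atm or sham surgery, and each array held a 7 mm disk of 1 rat. Rat groups had 5 injury and 4 sham arrays at 30 min, 3 and 4 at 4 h, 3 and 2 at 8, 24 and 72 h and at 21 d, and 3 naive arrays. Injured disks contained the contusion, so the model, the species, the anaesthetic and the disk size cannot be told apart when mouse and rat are set side by side. Both mouse sham arrays of a time are numbered 1 in their titles, with different letters (sham 1b and 1c, or 1c and 1d), so they may come from 1 pool, and p-values then measure the spread between arrays only.

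Values are deposited array signals on a linear scale with no stated unit, and differences are injury minus sham of the same time on the log2 scale, ± the standard error from limma. A gene is said to have risen or fallen where the Benjamini-Hochberg adjusted p of limma, over all genes tested, was below 0.05. The median signal was 285 to 340 on the mouse arrays. In rat it was 398 to 409 on the 5 arrays of 24 h and 230 to 390 on the 30 arrays of other times that did not stand apart. The 4 rat arrays that stood apart (sham 4 h replicates 3 and 4, sham 30 min replicate 3 and injury 30 min replicate 5) had median correlations of 0.537 to 0.785 with the other rat arrays. The remaining rat arrays had 0.818 or more. General neuron markers passed the filter for 12 of 13 listed genes in mouse and 9 of 13 in rat, and none of them was at the floor on all arrays of any group. Markers of the pituitary, with a summed signal of 18210 to 20461 on both mouse sham 4 h arrays and at most 2582 on every other mouse array, stood high in the controls of the mouse 4 h comparison. Ttr, the marker of choroid plexus, was also high in mouse sham arrays of 4 h (6654 to 7512) and 24 h (4341 to 5986), against 612 to 668 at 8 h and 1258 to 1289 at 72 h. In the injured groups it ran from 548 to 5458. The part of both in the results was not tested.

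In injured mouse cortex every receptor gene that was called against sham fell. Averaged over the 4 times, 5 of 16 genes fell and none rose, against a background of 10.3% of 6355 genes that fell and 13% that rose. These were the AMPA receptor genes Gria1, Gria2 and Gria3, the kainate receptor gene Grik1 and the GABA-A gene Gabrb1. The median difference of the 16 genes was 0.00 at 4 h, -0.44 at 8 h, -0.71 at 24 h and -0.54 at 72 h, while the median of all genes lay between -0.04 and 0.00. After quantile normalization the 4 medians of the receptor genes were -0.01, -0.39, -0.69 and -0.59. With all uninjured arrays as control they were -0.01, -0.07, -0.43 and -0.58, so that the 8 h median was then near 0. Leaving out single arrays moved the 8 h median to -0.28 (without injury replicate 2) and the 72 h median to -0.87 (without sham 1d). In these bulk samples fewer cells of a type and less RNA per cell cannot be told apart.

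**Figure D1:**
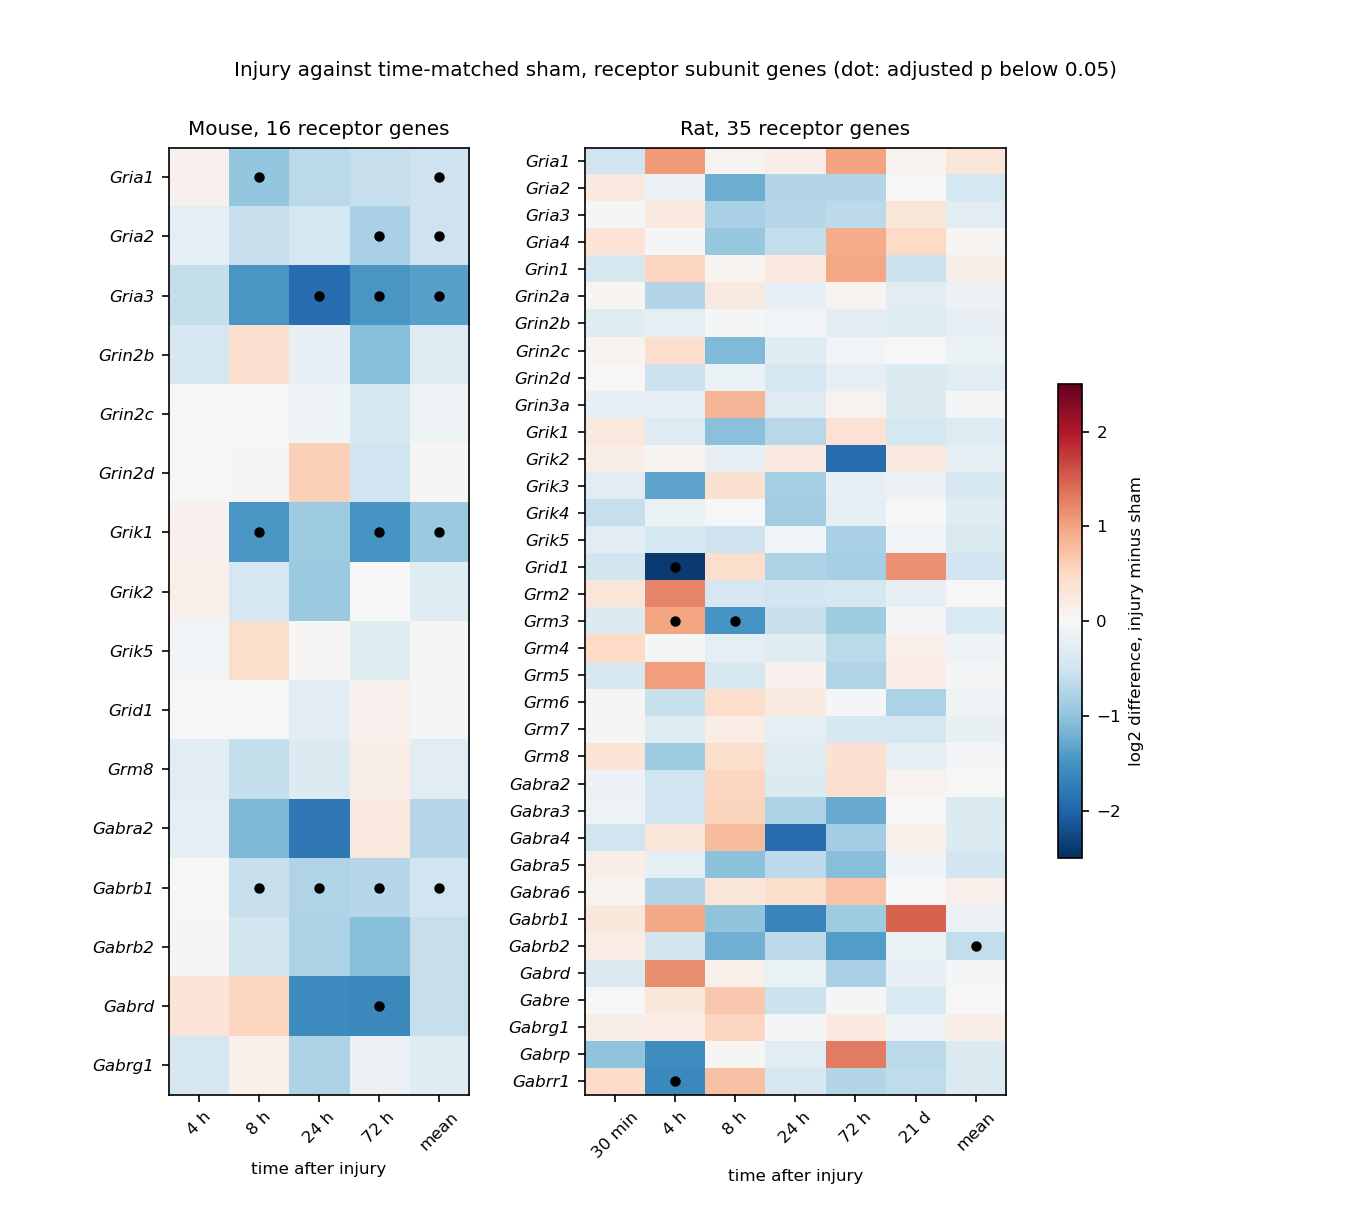
Log2 difference between injured and sham cortex (colour, blue lower and red higher after injury) for each receptor gene that passed the filter, with mouse on the left and rat on the right, by time after injury and for the mean over times. Black dots mark adjusted p below 0.05 in limma; in mouse all 15 dots lie on blue cells, and in rat 3 lie on blue cells of single times, 1 on a red cell and 1 on the mean of Gabrb2.

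By time, no mouse receptor gene was called at 4 h, where 0.865% of all genes were called in either direction, and none had an unadjusted p below 0.05. At 8 h, 3 of 16 fell against 3.27% of all genes. At 24 h, 2 of 16 fell against 4.5%, and at 72 h, 5 of 16 fell against 5.68%. None rose at any of these times, against 4.91%, 6.2% and 9.85% of all genes. Every injured array lay below every sham array for 4 of 16 genes at 4 h, 8 at 8 h, 8 at 24 h and 9 at 72 h, against 16.4%, 20.3%, 19.7% and 18% of all genes. All injured arrays lay above all sham arrays for 0, 1 (Gabrd), 1 (Grin2d) and 0 genes, against 18%, 17.8%, 17% and 20.5%. The direction was lower in 7, 9, 14 and 13 of the 16 genes, against 49.5%, 52.9%, 54.6% and 51% of all genes.

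Among the AMPA receptor subunits, all 3 genes that passed the filter fell over the mean of the times. Gria2 (Entrez gene 14800) encodes GluA2, the subunit whose edited form keeps AMPA receptors impermeable to calcium. At 72 h its signal was 14464 and 15450 in the sham arrays and 7674, 10483 and 7569 in the injured arrays. No injured array reached a sham array, and the injured arrays also lay below both naive arrays (12846 and 13052). The 72 h difference was -0.82 ± 0.18 (adjusted p = 0.00332 in limma), and the mean over times was -0.52 ± 0.09 (adjusted p = 0.000201). Injured arrays lay below sham arrays at each of the 4 times, by 0.24 on the log2 scale at 4 h (sham 10816 and 10696, injury 8009, 8851 and 10584), where the gene was not called. Neither Gria2 call was lost when any single array was left out.

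Gria2 was measured by 3 probe sets that passed the filter, and all 3 were lower after injury at each time. In a fit over all 8477 probe sets that passed, the probe set with the lowest 72 h value gave -1.28 ± 0.22 at 8 h, -1.25 ± 0.22 at 24 h and -1.35 ± 0.22 at 72 h. The adjusted p of limma for these was 0.00103, 0.0011 and 0.000312. Another gave -1.06 ± 0.21, -1.22 ± 0.21 and -0.86 ± 0.21 at the same times. Both were past the threshold at 8 and 24 h, where the probe set with the highest mean (-0.57 at 8 h, adjusted p = 0.0523 in limma over genes, and -0.45 at 24 h, adjusted p = 0.121) was not. At 4 h the 3 probe sets differed by -0.15, -0.31 and -0.24, none called.

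**Figure D2:**
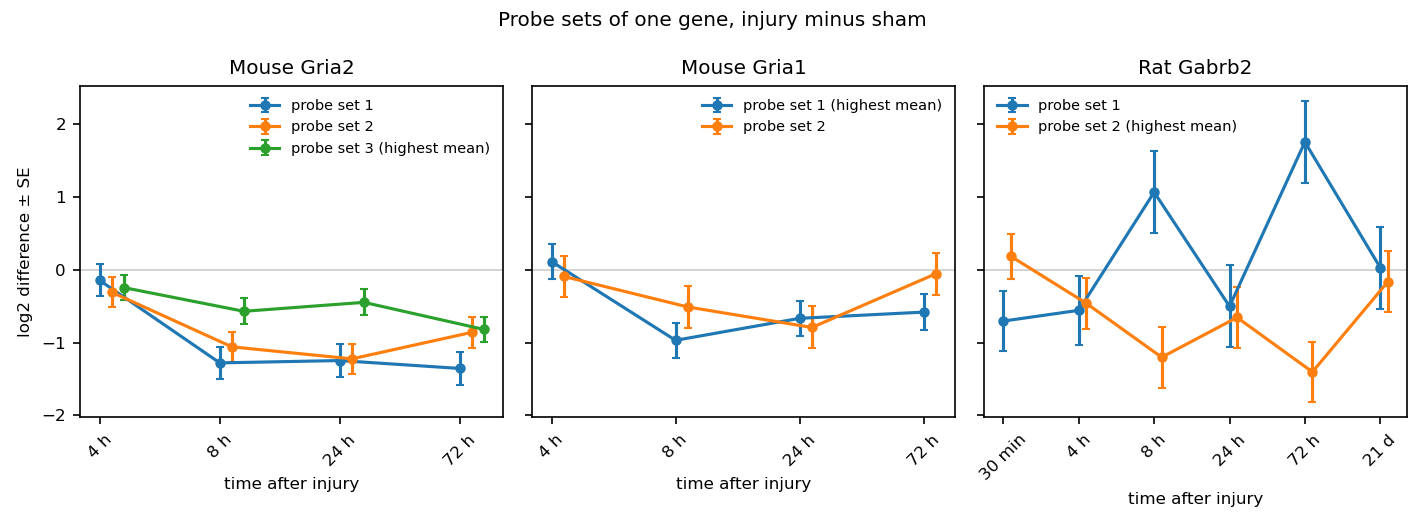
Log2 difference ± standard error between injury and sham (y axis) by time (x axis) for each probe set of 3 genes with several, mouse Gria2, mouse Gria1 and rat Gabrb2. The 3 Gria2 probe sets lie below 0 at every time, while the rat Gabrb2 probe sets part at 8 and 72 h, one below 0 and the other above.

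Gria1 (Entrez gene 14799), the gene of GluA1, a subunit inserted into synapses during potentiation, was lowest at 8 h. Its signal was then 2259 and 2660 in sham arrays and 1325, 980 and 1516 in injured arrays. The groups did not overlap, and the injured arrays also lay below the naive arrays (3435 and 2496). The difference was -0.97 ± 0.24 (adjusted p = 0.0161 in limma). Later differences were smaller and not called, -0.67 ± 0.24 at 24 h and -0.58 ± 0.24 at 72 h, with 3479 and 3390 in sham and 1669, 1998 and 3042 in injury at 24 h. The groups did not overlap, with injury replicate 3 (3042) nearest to the shams. Over the mean of the times the gene fell by 0.53 (SE 0.12, adjusted p = 0.00332 in limma). The 8 h call was lost without sham 1b (-1.09, adjusted p = 0.0692), sham 1c (-0.85, adjusted p = 0.123) or injury replicate 2 (-0.79, adjusted p = 0.0774), and with the mean of both probe sets (-0.74, adjusted p = 0.062).

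Gria3 (Entrez gene 53623), the gene of GluA3, had the lowest mean over times of the mouse receptor genes, -1.35 ± 0.23 (adjusted p = 0.000181 in limma). At 24 h its signal was 287 and 795 in sham arrays and 152, 116 and 118 in injured arrays. At 72 h it was 548 and 257 in sham and 179, 154 and 91.5 in injury. Each injured array was below each sham array at all 4 times, but the sham pairs were far apart, and the injured arrays at 24 and 72 h lay below the limit of the filter, 193. The differences were -1.90 ± 0.46 at 24 h (adjusted p = 0.0099) and -1.46 ± 0.46 at 72 h (adjusted p = 0.0349 in limma). The 24 h call was lost without sham 1d (-1.17, adjusted p = 0.268). The 72 h call was lost without sham 1c (-0.91, adjusted p = 0.271) or injury replicate 3 (-1.17, adjusted p = 0.14). At 8 h the difference was -1.46 ± 0.46 and was not called (adjusted p = 0.0546).

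**Figure D3:**
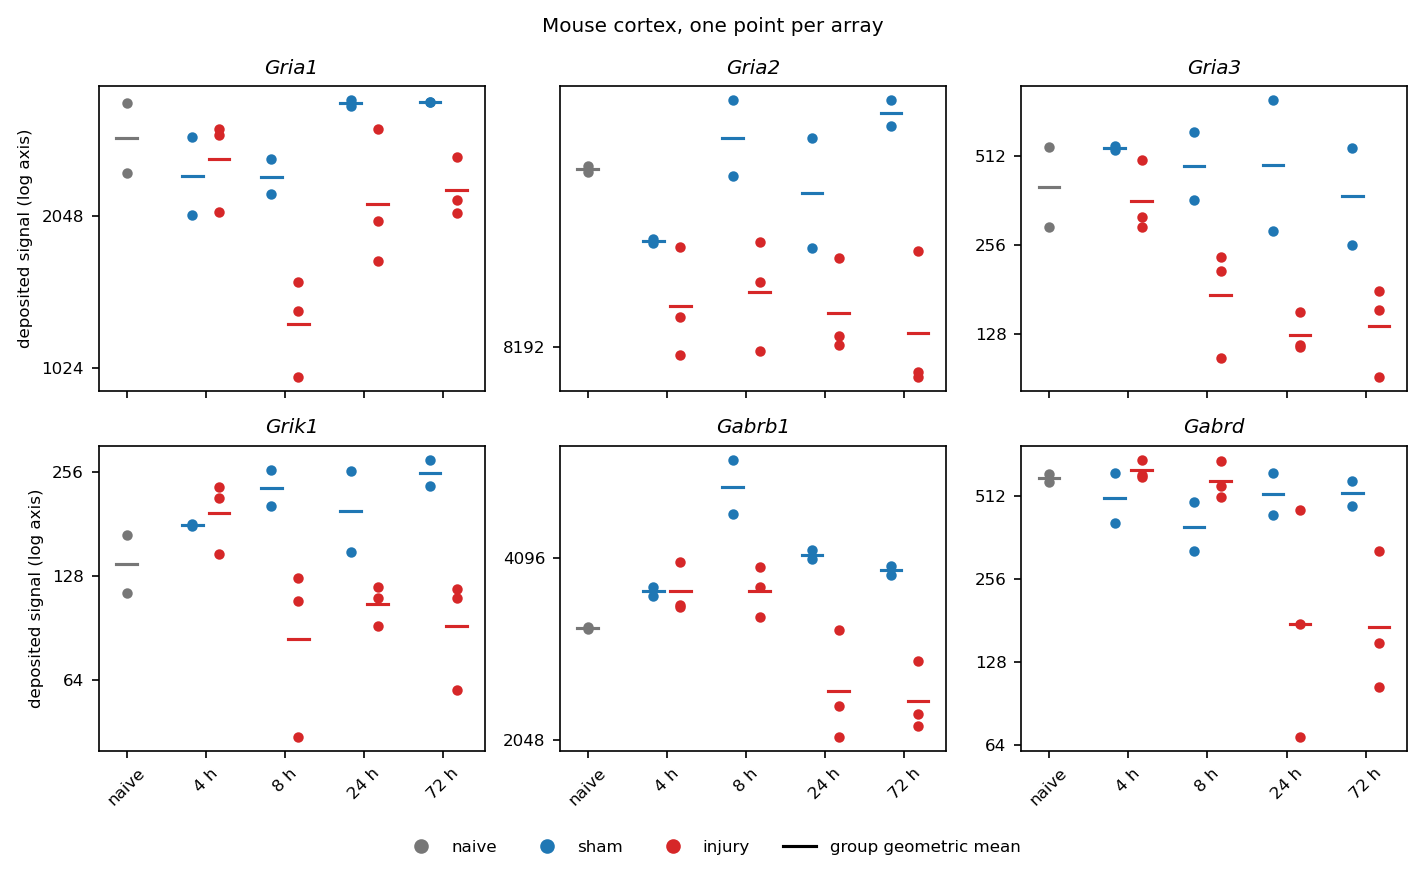
Deposited signal (log axis) of the 6 mouse receptor genes that were called in at least 1 comparison, 1 point per array, with naive in grey, sham in blue and injury in red at each time, and bars at the group geometric means. At 72 h the red points lie below the blue points in each of the 6 panels, whereas at 4 h they overlap in 4 of them.

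Among the mouse kainate receptor genes, Grik1 alone was called at its probe set with the highest mean. Grik1 (Entrez gene 14805), the gene of GluK1, a kainate subunit found on many interneurons, fell at 8 and 72 h. At 8 h the sham arrays had 259 and 204 and the injured arrays 108, 43.6 and 126. At 72 h they had 234 and 278 against 59.6, 110 and 117. Injured arrays did not reach sham arrays at either time, but the naive arrays (169 and 114) were low too, and injury replicate 3 overlapped them at both. The gene was dim, with only 7 of 22 arrays above the filter's limit. Differences were -1.45 ± 0.44 at 8 h (adjusted p = 0.0452) and -1.48 ± 0.44 at 72 h (adjusted p = 0.0273 in limma), and the mean over times was -0.93 ± 0.22 (adjusted p = 0.00407). The 8 h call was lost without sham 1b (-1.28, adjusted p = 0.316), sham 1c (-1.62, adjusted p = 0.105) or injury replicate 2 (-0.98, adjusted p = 0.196). The 72 h call was lost without sham 1c (-1.60, adjusted p = 0.0525), sham 1d (-1.35, adjusted p = 0.184) or injury replicate 1 (-1.17, adjusted p = 0.115). Grik5, the gene of the high-affinity subunit GluK5, had differences of -0.31 to 0.44 over the times, and Grik2, the gene of GluK2, had -0.92 to 0.13. Neither was called at any time, but a second Grik2 probe set had a mean over times of -0.72 ± 0.17 (adjusted p = 0.00467 in limma over probe sets), against -0.30 for the one with the highest mean.

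No NMDA, delta or metabotropic receptor gene was called in mouse. Grin2c, Grin2d and Grin2b, which encode regulatory NMDA receptor subunits, had mean differences over the times of -0.12, 0.03 and -0.32. Grin2b had the lowest of the 3 at 72 h, -1.06 ± 0.53, with overlapping arrays. Grid1, whose product GluD1 acts as a synaptic organiser, had differences of -0.28 to 0.10, and Grm8, a presynaptic receptor gene of group III, had -0.59 to 0.17.

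Of the 5 GABA-A genes tested in mouse, Gabrb1 was called at 3 of 4 times and Gabrd at 1. Gabrb1 (Entrez gene 14400) encodes the beta1 subunit. Its signal was 5942 and 4828 in sham and 3661, 3947 and 3265 in injury at 8 h, 4210 and 4070 against 2331, 3107 and 2074 at 24 h, and 3970 and 3840 against 2262, 2765 and 2162 at 72 h. Injured and sham arrays did not overlap at these 3 times. The naive arrays, at 3153 and 3119, lay below every sham array, so the injured arrays of 8 h were above naive and those of 24 and 72 h below it. Differences were -0.57 ± 0.16 at 8 h (adjusted p = 0.0315), -0.75 ± 0.16 at 24 h (adjusted p = 0.00413) and -0.71 ± 0.16 at 72 h (adjusted p = 0.00447 in limma). At 4 h the difference was 0.00, and the mean over times was -0.51 ± 0.08 (adjusted p = 8.93e-05). The 8 h call was lost without sham 1b (-0.42, adjusted p = 0.36), injury replicate 1 (-0.58, adjusted p = 0.0645) or injury replicate 3 (-0.49, adjusted p = 0.101). With all uninjured arrays as control, the 8 h difference was -0.13 (adjusted p = 0.644). The calls of 24 and 72 h were kept with each single array left out.

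Gabrd (Entrez gene 14403), the gene of the delta subunit of extrasynaptic receptors that carry tonic inhibition, fell at 72 h only. Its signal was 580 and 471 in sham and 104, 322 and 150 in injury. At 24 h it was 436 and 623 against 175, 454 and 68.2, where 1 injured array lay within the sham range. The 72 h difference was -1.61 ± 0.52 (adjusted p = 0.0421 in limma) and the 24 h difference -1.57 ± 0.52 (adjusted p = 0.0612). At 8 h the order was the other way, with 322 and 488 in sham and 557, 685 and 508 in injury, a difference of 0.55 ± 0.52 that was not called. The 72 h call was lost without sham 1c (-1.46, adjusted p = 0.14), sham 1d (-1.76, adjusted p = 0.136), injury replicate 1 (-1.25, adjusted p = 0.169) or injury replicate 3 (-1.51, adjusted p = 0.116). It was also lost after quantile normalization (adjusted p = 0.0529 in limma) and with the mean of each gene's probe sets (adjusted p = 0.053). Gabrd has 1 probe set, so in the second setting only the other genes of the fit differed.

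The other GABA-A genes were not called. Gabra2, the gene of the alpha2 subunit, had no overlap between groups at 8 h (sham 456 to 655, injury 159 to 324) or 24 h (sham 597 to 763, injury 166 to 212), with differences of -1.12 ± 0.63 and -1.80 ± 0.63 (adjusted p = 0.0756 at 24 h in limma). At 72 h 1 sham array was at 67.3 and the other at 792, and the difference was 0.24. Gabrb2, the gene of the beta2 subunit, had -1.07 ± 0.50 at 72 h (adjusted p = 0.177). Gabrg1, the gene of the gamma1 subunit, had -0.78 to 0.13 over the times.

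When the 2 sham arrays of a time were averaged to 1 sample, which the shared title number allows, 4 of the 5 calls of the mean over times stayed. Gria1 had an adjusted p of 0.0401, Gria2 0.0043, Gria3 0.00171 and Gabrb1 0.00432 in limma. Grik1 was then at 0.0562. Of the calls at single times, Gria3 at 24 h (adjusted p = 0.0456) and Gria2 at 72 h (adjusted p = 0.0322) stayed, and the other 8 did not (adjusted p = 0.0547 for Gabrb1 at 72 h to 0.273 for Grik1 at 8 h). Fitted on only the groups compared, Gabrb1 at 8 h (adjusted p = 0.0825) and 24 h (0.0798), Grik1 at 8 h (0.154) and 72 h (0.111), Gria3 at 72 h (0.107) and Gabrd at 72 h (0.086) missed the threshold. The title letter as a block or no filter on dim genes also ended the calls of Grik1 at 8 h (adjusted p = 0.0865 and 0.0544), Gria3 at 72 h (0.143 and 0.0645) and Gabrd at 72 h (0.154 and 0.0813), and the block that of Grik1 at 72 h (0.171).

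The change of the injury effect between 4 and 72 h was tested as a difference of differences. No mouse receptor gene was called, against 5.22% of all genes in either direction, and 4 of 16 (Gabrb1, Gabrd, Gria2 and Grik1) had an unadjusted p below 0.05 in limma, each with the lower value at 72 h. Gabrb1 had -0.71 ± 0.23 (adjusted p = 0.0765). The mean of the mouse sham groups did not differ from naive for any receptor gene, against 0.11% of all genes called. Gabrb1 was the only one of the 16 with an unadjusted p below 0.05, at 0.42 ± 0.14 higher in sham (adjusted p = 0.276).

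Other genes of the synapse were tested as lists. Of 37 listed postsynaptic partners such as scaffold and auxiliary proteins, 18 were tested, and at 72 h Homer2 (-1.08 ± 0.26, adjusted p = 0.00716) and Dlg3 (-0.86 ± 0.25, adjusted p = 0.0275), both scaffold genes, fell in limma. Gabarap, whose product binds GABA-A receptors and takes part in autophagy, rose by 0.60 ± 0.15 (adjusted p = 0.0115). These 2 falls and 1 rise of 18 stand against 5.68% and 9.85% of all genes. The median of the 18 genes was -0.27 at 4 h, -0.09 at 8 h, -0.16 at 24 h and -0.14 at 72 h. Of 16 listed genes for transmitter supply and clearance, 8 were tested. Glul, the glutamine synthetase gene of astrocytes, fell at 8 h (-0.88 ± 0.26, adjusted p = 0.0401), and the GABA transporter gene Slc6a13 fell at 24 h (-1.0 ± 0.19, adjusted p = 0.00144 in limma). Over the mean of the times 4 of the 8 fell, against 10.3% of all genes, and none rose, with Glud1 and the neuronal glutamate transporter gene Slc1a1 besides these.

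The general neuron markers had medians near 0. Over 12 genes they were -0.15, -0.09, -0.03 and 0.07 at 4, 8, 24 and 72 h, with Nefh higher at 24 h and the synaptic vesicle gene Syp (-0.56 ± 0.17, adjusted p = 0.0324 in limma) lower at 72 h as the only calls. Microglia and macrophage markers rose in 1, 6, 9 and 12 of 12 genes at these times, and their summed signal was 11328 to 12188 in sham and 47571 to 60925 in injury at 72 h. The 4 astrocyte markers tested went both ways. Gfap rose at 24 and 72 h (2.30 and 2.76), the water channel gene Aqp4 fell at 8 h (-2.08 ± 0.55) and rose at 72 h (1.94 ± 0.55), and the gap junction gene Gja1 fell at 24 h (-1.07 ± 0.16). Of 4 oligodendrocyte markers, 2 rose at each of 8, 24 and 72 h, among them the myelin gene Mag by 1.02, 1.11 and 1.10. Of 6 endothelial markers Vwf rose at these times, by 1.16, 1.98 and 2.02, and Cldn5 at 72 h. Of the red blood cell markers, Alas2 (1.28) and Hbb-b2 (1.58) rose at 4 h, and Alas2 (1.07) and Hba-a1 (0.89) at 8 h. The part of these other cell types in the receptor differences was not tested.

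**Figure D4:**
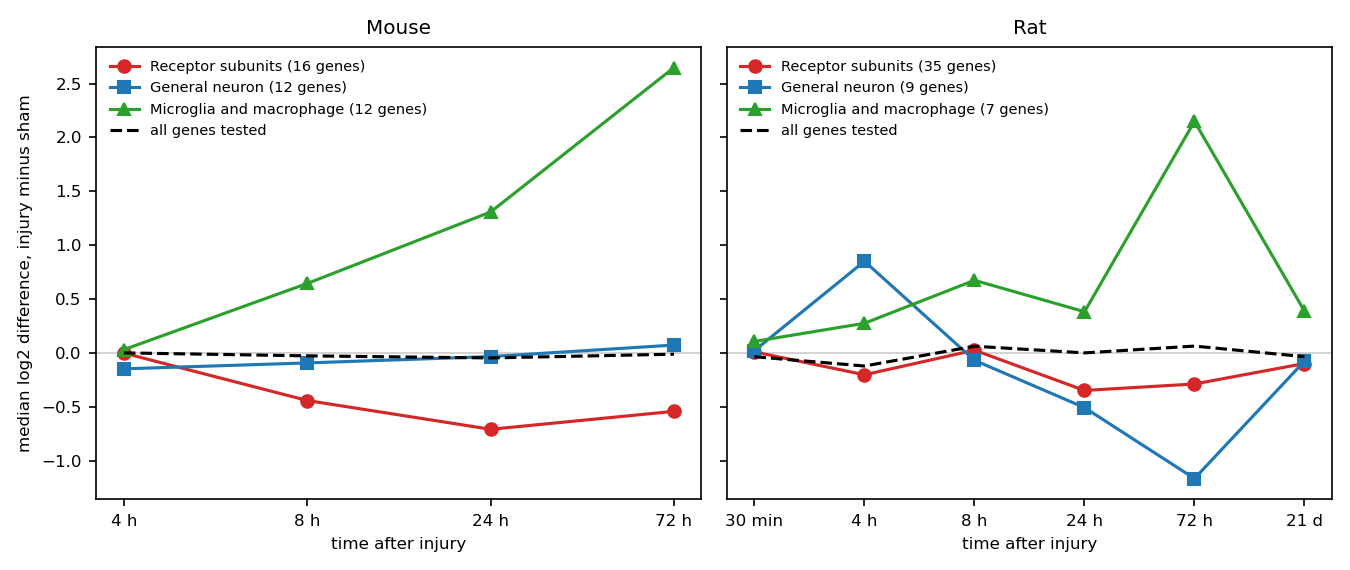
Median log2 difference between injury and sham (y axis) by time after injury (x axis) for receptor genes, general neuron markers, microglia and macrophage markers and all genes tested, in mouse and rat. In mouse the receptor median is below the neuron marker median from 8 h on, and in rat the neuron marker median is the lower one at 24 and 72 h.

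In injured rat cortex few receptor genes were called. Over the mean of the 6 times 1 of 35 genes, Gabrb2, fell, against 0.122% of 4091 genes that fell, and none rose, against 2.18%. The median of the 35 genes was 0.01 at 30 min, -0.20 at 4 h, 0.03 at 8 h, -0.35 at 24 h, -0.29 at 72 h and -0.10 at 21 d. That of all genes was -0.03, -0.12, 0.06, 0.00, 0.07 and -0.03, and the 8 h median of the receptor genes turned to -0.15 after quantile normalization. With all uninjured arrays as control the 8 h median was -0.24, the 24 h median -0.08 and the 21 d median 0.08. The 4 h median was -0.03 without the 4 arrays that stood apart, and from -0.38 (without sham replicate 1) to -0.04 (without sham replicate 3) with single arrays left out. The direction was lower in 17, 22, 17, 29, 24 and 23 of 35 genes at the 6 times in order, against 54.5%, 55.7%, 45.5%, 49.6%, 46.1% and 54.1% of all genes. Every injured array lay below every sham array for 16 of 35 genes at 24 h and 7 at 72 h, against 15.7% and 15.1% of all genes, and for 0, 4, 8 and 8 at 30 min, 4 h, 8 h and 21 d, against 0.293%, 6.33%, 17.5% and 12.8%. All injured arrays lay above all sham arrays for 0, 1, 2, 1, 3 and 1 of 35 genes at the 6 times in order. The shares of all genes were 0.367%, 5.48%, 19.5%, 16.4%, 19% and 9.83%.

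At single times, 4 h had 3 calls of 35 (2 fell and 1 rose, against 2.05% and 2.93% of all genes) and 8 h had 1, which fell (against 0.0978% of all genes that fell and 0.611% that rose). At 30 min, 24 h, 72 h and 21 d limma called none, against 0.0244%, 0.269%, 2.76% and 0% of all genes. The counts of receptor genes with an unadjusted p below 0.05 at these times were 1, 2, 6 and 0. Without the 4 arrays that stood apart, 4 genes fell at 72 h, namely Gabrb2, Gabra5, Grik2 and Grm3, while 9.19% of all genes were then called in either direction. For Grik2, 1 of the injured 72 h arrays was below the floor. None of the 4 arrays that stood apart is a 72 h array, and the differences at 72 h were the same. What changed was the spread, now estimated without the 4 arrays that correlated least with the others. These were picked from the same data, and with all arrays 2.76% of all genes were called. At 72 h the 12 GABA-A genes had a median of -0.77 with 8 lower, the 7 metabotropic genes -0.43 with 6 lower and the 5 kainate genes -0.22 with 4 lower. The 6 NMDA genes had a median of 0.00 with 3 lower, and the 4 AMPA genes 0.13 with 2 lower.

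Grm3 (Entrez gene 24416), the gene of the group II receptor mGlu3 of astrocytes and nerve terminals, was the rat receptor gene with the most calls. At 8 h its signal was 1930 and 1862 in sham arrays and 759, 653 and 650 in injured arrays. At 72 h it was 2658 and 2703 against 1604, 1468 and 1275. At 4 h the order was the other way, with 3044, 2116, 2346 and 1011 in sham and 3829, 3820 and 4143 in injury. In none of these did the groups overlap, and within each injured group the arrays lay close together. The injured 4 h arrays of 3829 and 3820 lay below every naive array (5966, 6513 and 3893). That of 4143 lay within the naive range, so the order at 4 h is against low sham arrays.

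Grm3 fell by 1.47 on the log2 scale at 8 h (SE 0.33, adjusted p = 0.0264 in limma), with an adjusted p of 0.00102 without the 4 arrays that stood apart and 0.0602 after quantile normalization. Leaving out any 1 of the 5 arrays of 8 h ended that call: sham replicate 1 (adjusted p = 0.148), sham replicate 2 (adjusted p = 0.223), or injury replicates 1 (adjusted p = 0.0597), 2 (adjusted p = 0.0809) and 3 (adjusted p = 0.104). The difference itself stayed between -1.54 and -1.43. At 4 h Grm3 rose against sham, though not above the naive range, by 0.99 ± 0.28 (adjusted p = 0.0413 in limma). That call was lost without the arrays that stood apart (0.63, adjusted p = 0.334), without sham replicate 3 (adjusted p = 0.0703), without sham replicate 4 (0.67, adjusted p = 0.228) and without any 1 of the injured arrays (adjusted p = 0.102 to 0.14). The effect at 72 h minus that at 4 h was -1.88 ± 0.43 (adjusted p = 0.0158), the 1 call of 35 in that comparison, against 1.91% of all genes that fell and 2.81% that rose. It was at an adjusted p of 0.0205 without the arrays that stood apart. It was lost with only the groups compared in the fit (adjusted p = 0.278) or all uninjured arrays as control (-1.44, adjusted p = 0.0592). It was also lost without sham 72 h replicate 1 (adjusted p = 0.0869), sham 72 h replicate 2 (adjusted p = 0.0629) or injury 72 h replicate 3 (adjusted p = 0.0559).

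**Figure D5:**
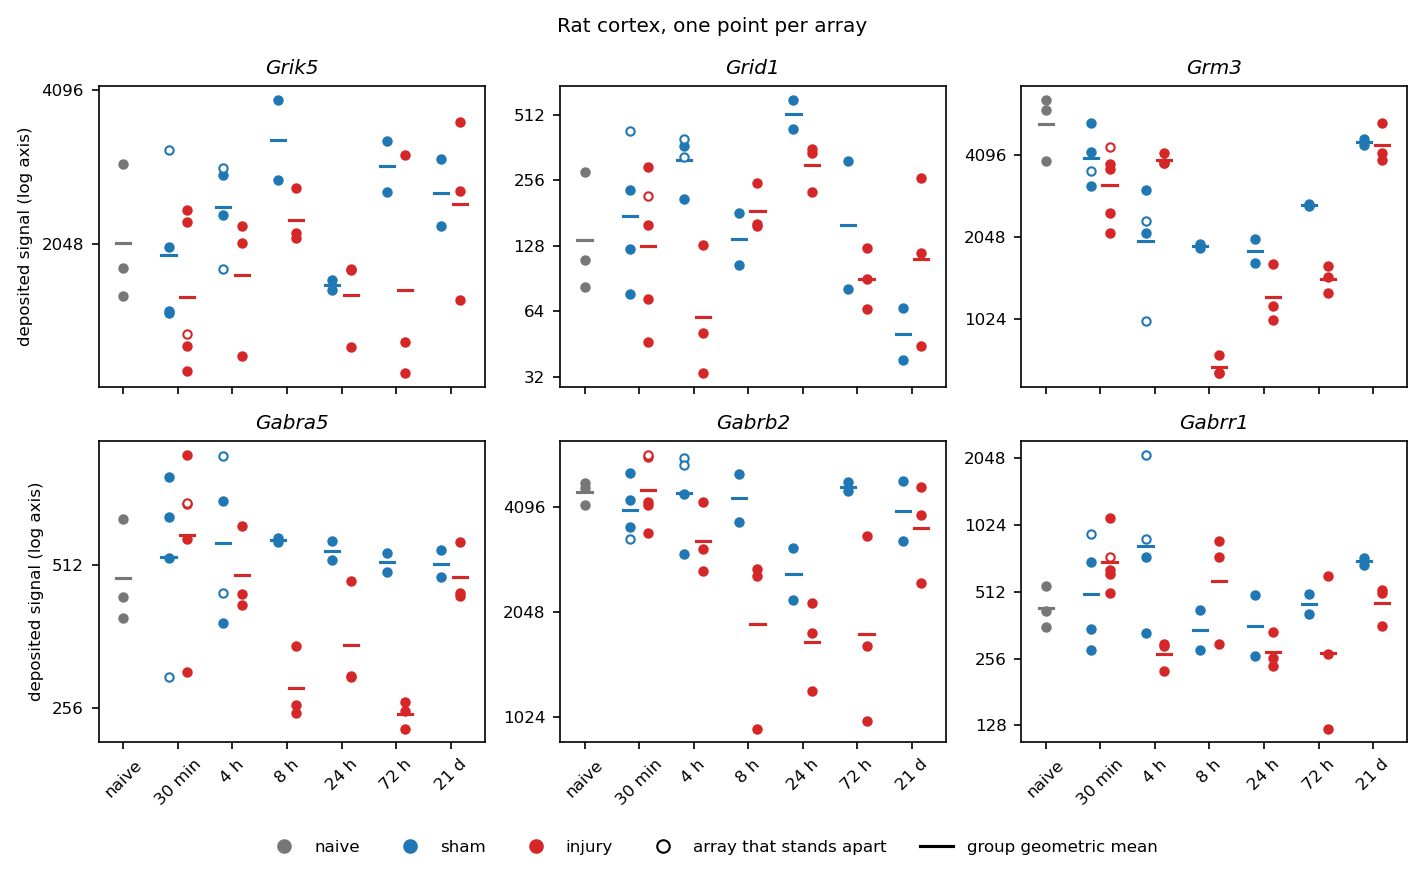
Deposited signal (log axis) of 6 rat receptor genes, 1 point per array, with naive in grey, sham in blue and injury in red at each time, bars at the group geometric means, and open points for the 4 arrays that stood apart. Grm3 signals in injury lie above sham at 4 h and below it at 8, 24 and 72 h, and at 21 d both lie near the naive arrays.

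The rat sham arrays themselves differed from naive in Grm3. Naive arrays had 5966, 6513 and 3893, the 30 min shams 4201, 5362, 3571 and 3146, the 24 h shams 2007 and 1641, and the 21 d shams 4428 and 4668. Sham arrays of 4, 8, 24 and 72 h all lay below the lowest naive array, and those of 21 d lay within the naive range. Sham 24 h against naive was -1.55 ± 0.33 (adjusted p = 0.00602 in limma), in a comparison where 1.25% of all genes and 2 of the 35 receptor genes fell, the other being Grik2 (-2.98 ± 0.63, adjusted p = 0.00564). The rat 24 h arrays carry an extra letter f in their titles, whose meaning the labels do not give. Their median correlations with other arrays were 0.821 to 0.843 against 0.921 or more for the naive arrays, so this letter and the time after sham surgery cannot be told apart here. The Grm3 call was lost without sham 24 h replicate 2 (-1.41, adjusted p = 0.158). Sham 4 h was at -1.43 (adjusted p = 0.0506), sham 8 h at -1.49 (adjusted p = 0.159), sham 72 h at -0.99 (adjusted p = 0.432) and sham 21 d at -0.23 (adjusted p = 1). Without the 4 arrays that stood apart, Grm3 was also called in sham 8 h (-1.49, adjusted p = 0.00947 in limma) and sham 72 h (-0.99, adjusted p = 0.0488), and not in sham 4 h (-1.07, adjusted p = 0.135). These tests by time were chosen after the values had been seen. The mean of all sham groups, the planned test, gave -1.02 ± 0.23 (adjusted p = 0.215) and, without the 4 arrays that stood apart, -0.95 ± 0.18 (adjusted p = 0.0219). No receptor gene was called in that test on all arrays, against 0.0244% of all genes, and 6 of 35 had an unadjusted p below 0.05. The injured arrays of 8 h, at 650 to 759, lay below every other rat array in Grm3.

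Among the rat GABA-A genes, Gabrb2 (Entrez gene 25451), the gene of the beta2 subunit of the most common cortical GABA-A receptors, fell over the mean of the times by 0.62 (SE 0.16, adjusted p = 0.0238 in limma). At 8 h its signal was 3717 and 5089 in sham and 950, 2609 and 2733 in injury. At 24 h it was 3140 and 2227 against 1221, 2184 and 1781, and at 72 h 4832 and 4548 against 3398, 1639 and 1002. The groups did not overlap at these 3 times, but at 24 h the sham arrays were themselves below the naive arrays (4663, 4168 and 4807). At 30 min, 4 h and 21 d sham and injured arrays overlapped. The 72 h difference was -1.40 ± 0.41 (adjusted p = 0.061, and 0.0244 without the 4 arrays that stood apart).

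The second Gabrb2 probe set did not follow the first. It was higher after injury at 8 h (1.07 ± 0.56) and 72 h (1.76 ± 0.56, adjusted p = 0.0868 in limma over probe sets), and 0.18 ± 0.21 over the mean of the times. The mean of both probe sets gave -0.22 (adjusted p = 0.651), so the direction at 8 and 72 h depends on the probe set. The call of the mean over times was also lost without sham 8 h replicate 2 (adjusted p = 0.0686), sham 24 h replicate 1 (adjusted p = 0.0804), sham 72 h replicate 1 (adjusted p = 0.0534), sham 21 d replicate 1 (adjusted p = 0.0844) or injury 24 h replicate 1 (adjusted p = 0.0501).

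The GABA-A genes that fell in the mean over times both encode beta subunits, Gabrb1 in mouse and Gabrb2 in rat, and their rat promoters are shown for that reason, chosen after their values were seen. RefSeq promoter sequence on build GRCr8 was matched for 27 of the 38 rat genes. Gabra2, Gabrp, Gria1, Gria2, Gria3, Grid1, Grin2a, Grin2b, Grm2, Grm3 and Grm4 had no matched sequence and could not be searched. In the 27 matched genes, the 250 bases before the start were searched on both strands. Several motifs were sought, among them that of the nuclear respiratory factor NRF1, GCGC and TGCGC parted by any 1 base. Rat Gabrb1 itself was not called, and the probe sets of rat Gabrb2 did not go the same way. Both beta genes held a match, marked in capitals, and no other of the 27 did, so that 7.41% of them held one. Of all 27457 promoters of that length 4.17% held it. The match lay 20 to 29 bases before the start in Gabrb1 (chr14:36902894-36903143, minus strand) and 86 to 95 bases before it in Gabrb2 (chr10:27439543-27439792, plus strand).
Gabrb1: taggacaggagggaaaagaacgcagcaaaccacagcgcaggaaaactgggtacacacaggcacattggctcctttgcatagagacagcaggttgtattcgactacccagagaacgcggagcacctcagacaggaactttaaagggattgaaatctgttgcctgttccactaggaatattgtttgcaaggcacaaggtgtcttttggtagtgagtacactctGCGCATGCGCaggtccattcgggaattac
Gabrb2: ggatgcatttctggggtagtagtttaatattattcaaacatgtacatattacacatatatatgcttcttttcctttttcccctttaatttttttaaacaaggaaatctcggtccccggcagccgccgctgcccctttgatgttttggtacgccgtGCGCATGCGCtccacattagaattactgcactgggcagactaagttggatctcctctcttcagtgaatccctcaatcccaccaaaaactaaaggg
A match is a description of these letters and shows no binding. The GC box (GGGCGG) was in 8 of the 27 promoters, Gabra4, Gabra5, Gabrd, Gabre, Gabrg3, Grik3, Grik5 and Grm7, or 29.6%, and in 32.4% of all promoters. The TATA box letters TATAAA were in 7.41% (Gabra3 and Gabrr2) and in 13.1% of all. The motifs TGACGTCA (cAMP response element) and TGANTCA (AP-1) were in none of the 27.

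Rat Gabrb1, measured by 1 probe set, had -1.0 at 8 h, -1.65 at 24 h, -0.90 at 72 h and 1.47 at 21 d and was not called. Gabra5 (Entrez gene 29707), the gene of the alpha5 subunit of extrasynaptic receptors, had 584 and 573 in sham and 251, 260 and 347 in injury at 8 h. At 24 h it had 577 and 525 against 299, 475 and 298, and at 72 h 496 and 544 against 232, 253 and 264. The groups did not overlap at these 3 times, and the 72 h injured arrays were all below the naive arrays (439, 396 and 641). Its mean over times was -0.49 ± 0.15 (adjusted p = 0.0847 in limma, and 0.0176 without the 4 arrays that stood apart). Gabra4 had the lowest 24 h difference of the rat receptor genes, -1.90 ± 0.49 (adjusted p = 0.103).

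Gabrr1 (Entrez gene 29694), the gene of a rho subunit best known from the retina, fell at 4 h by 1.61 (SE 0.49, adjusted p = 0.0491 in limma). Its signal was 334, 733, 2112 and 880 in sham and 296, 292 and 226 in injury. The injured arrays lay below the shams, of which the 2 highest were the arrays that stood apart; without the 4 such arrays the difference was -0.88 (adjusted p = 0.596). The call was further lost without sham replicate 3 (-1.15, adjusted p = 0.184), sham replicate 4 (-1.57, adjusted p = 0.189) or any 1 of the injured arrays (adjusted p = 0.111 to 0.151), after quantile normalization (adjusted p = 0.0566) and without the filter (adjusted p = 0.0604). Other GABA-A genes in rat, Gabra2, Gabra3, Gabra6, Gabrd, Gabre, Gabrg1 and Gabrp, were not called in any injury comparison. Gabrd, which fell in mouse at 72 h, had 1.16 ± 0.43 at 4 h (adjusted p = 0.0879) and -0.80 at 72 h in rat.

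Among rat ionotropic glutamate receptor genes, Grid1 (Entrez gene 79219) fell at 4 h by 2.39 (SE 0.64, adjusted p = 0.0364 in limma). Its signal was 210, 369, 398 and 327 in sham and 51.2, 130 and 33.3 in injury. The groups did not overlap, although naive arrays reached down to 82.7 and the 21 d sham arrays to 38.3, and the injured arrays were below the filter's limit. Without the 4 arrays that stood apart the difference was -2.20 (adjusted p = 0.189). The call was also lost without sham replicate 3 (adjusted p = 0.0962), sham replicate 4 (adjusted p = 0.105), injury replicate 1 (adjusted p = 0.107) or injury replicate 3 (-1.96, adjusted p = 0.122). Fits on only the 2 groups compared gave an adjusted p of 0.552 for each of Grid1, Gabrr1 and Grm3 at 4 h, and with all uninjured arrays as control it was 0.346, 0.479 and 0.734.

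Grik5 (Entrez gene 24407) was lower after injury at all 6 times in its group means, with a mean over times of -0.36 ± 0.15 (adjusted p = 0.304 in limma). At 72 h it had 3257 and 2593 in sham and 3054, 1148 and 1321 in injury, and the groups overlapped. Grik4, the gene of the other high-affinity kainate subunit, and Grin2b were also lower at all 6 times, with means of -0.31 and -0.21. Grik2 had -1.91 ± 0.63 at 72 h (adjusted p = 0.106 in limma), with overlapping arrays (sham from 300.1, injury 13.6 to 325). The injured array of 13.6 lay below the floor of 32.1, to which it was raised before log2. Grik1 and Grik3 had means of -0.32 and -0.40.

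The rat AMPA receptor genes were not called. Gria2 had -1.22 ± 0.49 at 8 h (adjusted p = 0.446), -0.74 at 24 h and -0.74 at 72 h. Gria3 had -0.81, -0.71 and -0.66 at these times, Gria4 had -0.94, -0.61 and 0.93, and Gria1 had 0.06, 0.17 and 1.0. The NMDA receptor genes Grin1, which encodes the obligatory subunit, Grin2a, Grin2b, Grin2c, Grin2d and Grin3a had means over times between -0.28 and 0.14. Grin2d, with -0.28 ± 0.12, had the lowest of these (adjusted p = 0.329 in limma), and its injured arrays lay below all shams at 4 of 6 times. The metabotropic genes other than Grm3, namely Grm2, Grm4, Grm5, Grm6, Grm7 and Grm8, had means between -0.19 and -0.01.

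Of the rat postsynaptic partners 22 of 37 were tested and none was called at a single time. In the effect at 72 h minus that at 4 h the kinase gene Camk2b fell. Of the transmitter supply genes 12 of 16 were tested, with none called at a single time and the vesicular GABA transporter gene Slc32a1 lower in the same comparison. General neuron markers fell in 3 of 9 genes at 72 h (Nefm -1.96 ± 0.43, Thy1 -0.95 ± 0.25 and Map2 -1.16 ± 0.33), and their summed signal was 70253 to 75371 in sham and 27032 to 49831 in injury. On the sham 4 h arrays that sum ran from 29805 to 62109. In the effect at 72 h minus that at 4 h, where Grm3 was called, the neuron markers Nefh (-3.68), Snap25 (-3.27), Nefm (-2.20) and Syp (-1.70) also fell. So did the astrocyte marker S100b (-2.14) and the oligodendrocyte marker Mobp (-2.17). The microglia and macrophage markers Cd53 (3.20) and Lyz2 (2.64) rose in it. Microglia and macrophage markers rose in 4 of 7 genes at 72 h. At 4 h the red blood cell markers Alas2 (1.74), Hbb (2.36) and Hbb-b1 (1.93) and the myelin gene Mbp (3.28) rose. At 8 h Hbb-b1 rose by 1.76. The part of these in the receptor differences was not tested.

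Of the receptor genes, 16 passed the filter in both species. Both were lower after injury for 5 of 16 at 4 h, 6 at 8 h, 12 at 24 h and 10 at 72 h, and the species went opposite ways for 6, 7, 4 and 4. In mouse alone 7, 9, 14 and 13 of the 16 were lower at these times, and in rat 9, 10, 14 and 11. Whether more genes were lower in both than these counts give by themselves was not tested. No gene was called in both at a single time. Gria2 stood at -0.57 in mouse and -1.22 in rat at 8 h, -0.45 and -0.74 at 24 h, and -0.82 and -0.74 at 72 h. Gria1 parted, with -0.58 in mouse and 1.0 in rat at 72 h, and so did Grik1, with -1.48 and 0.36. The difference between species was not tested, since the arrays carry different probes.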

How the data were processed

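The deposited tables hold linear intensities, 1 for each probe set of an array; the software that made them is not given in the sources used here. Probe sets were paired with genes through the platform annotation supplied with the values. Before log2, lower intensities were raised to a floor, the 10th percentile over all arrays of a species (24.1 for mouse and 32.1 for rat). Probe sets above the pooled 40th percentile (193 and 202) in at least 3 arrays passed, which left 6355 mouse and 4091 rat genes at 1 probe set each. limma 3.58.1 in R 4.3.3 fitted a mean per group in each species with a variance trend (residual degrees of freedom 13 and 26); p-values were Benjamini-Hochberg adjusted within a comparison, and calls were made at 0.05. The fit was tested on simulated data. The number of arrays limits the precision. Full values are given for each receptor gene called in an injury comparison, and in rat for the next by unadjusted p of the mean over times, up to 6. From the lists, at most 4 called genes per comparison are named. The receptor genes and lists were chosen with earlier results of these data known. Alternatives covered scaling, filter, floor, probe sets, control group, groups in the fit, blocks and left-out arrays. Leaving out arrays of the mean over times, of 72 h minus 4 h and of sham against naive, and sham against naive by time, were added after seeing the data.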

Additional observations from a re-analysis of the deposited data

Results flagged for a closer look

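In 105 checks of rat groups of 4 or 5 arrays, 1 array lay far from the others in 6, and chance gives about 1 in 20. The gap to the nearest array, as a share of the group's range, was 0.854 for Grin2d in sham 30 min replicate 2 and 0.894 for Gabra2 in sham 4 h replicate 4. In the injury 30 min group it was 0.770 for Gria2 and 0.725 for Grin2b in replicate 4, and 0.761 for Grm2 and 0.726 for Grm7 in replicate 5. The injury effect on rat Grm3 differed between 72 h and 4 h, by -1.88 on the log2 scale in the test of the difference itself.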

How the results depend on the processing

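Counts of receptor genes called moved as follows. With all uninjured arrays as control, mouse had 1 at 4 h, 5 at 24 h and 4 for 72 h minus 4 h, and rat had 0 at 4 h, 3 at 8 h, 7 at 24 h, 4 at 72 h, 2 for the mean over times and 2 for 72 h minus 4 h. The share of all genes called rose with that control too for these mouse comparisons, to 6.97%, 19% and 19.1%. In rat it rose to 1.93%, 11.3% and 5.84% at 8, 24 and 72 h and to 3.2% for the mean over times. It fell in rat from 4.99% to 1.17% at 4 h and from 4.72% to 3.62% for 72 h minus 4 h. With only the compared groups fitted, mouse had 1 at 8 h and 2 at 72 h, against 4.86% and 7.47% of all genes. In that setting rat had 0 at 4 h and 0 for 72 h minus 4 h, against 0.0244% and 0.0489%. With averaged sham arrays mouse had 0 at 8 h and 1 at 72 h, against 3.01% and 7.38%. At 72 h mouse had 3 without the filter and 2 with the title letter as a block, against 11.1% and 8.67%. Rat at 8 h had 0 after quantile normalization, against 0.499%. With the mean of probe sets rat had 0 for the mean over times and 2 for 72 h minus 4 h, against 2.74% and 5.44%. Without the 4 arrays that stood apart rat had 0 at 4 h, 4 at 72 h, 3 for the mean over times and 1 for sham against naive, where 1.08%, 9.19%, 5.16% and 0.0489% of all genes were called. Leaving out 1 array at a time gave, in mouse, 0 to 0 at 4 h, 0 to 3 at 8 h, 1 to 3 at 24 h, 3 to 5 at 72 h, 5 to 8 for the mean over times, 0 to 1 for 72 h minus 4 h and 0 to 0 for sham against naive. In rat it gave 0 to 0 at 30 min, 0 to 7 at 4 h, 0 to 0 at 8 h, 0 to 1 at 24 h, 0 to 3 at 72 h, 0 to 0 at 21 d, 0 to 2 for the mean over times, 0 to 5 for 72 h minus 4 h and 0 to 1 for sham against naive. The shares of all genes called with 1 array left out are not given here. These ranges therefore describe counts only and cannot be set against the other genes. None of the calls of named genes changed direction under the settings run. The deviations of same-numbered rat samples had correlations of -0.411 to 0.358. At 30 min these were 0.357, 0.247, -0.411 and 0.358 for numbers 1 to 4, and number 3 holds a sham array that stood apart. Whether the numbers pair the samples is not settled by these values. A replicate block gave 1 call at 24 h (Gabra4) and 1 for sham against naive (Grm3), and ended the 4 h call of Gabrr1 (adjusted p = 0.0506 in limma). No paired analysis was possible in mouse because injury and sham share fewer than 2 numbers. The title letter block could not be fitted for 4 h, the mean over times, 72 h minus 4 h or sham against naive. Where a setting left 1 sham array, its spread was taken from the remaining groups. The cause of these changes was not tested.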
